A study of Mus musculus with 4 samples.

Results

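The genes described here are 38 genes of glycolysis, of lactate production and export, and of the citric acid cycle, among 37074 gene names on a whole-genome mouse array. A gene was included if a non-control probe of the array carried its name, and all 38 had one, with 82 probes in all. RNA was compared between 2 transformed mouse testicular lines with 2 arrays per line, and nothing in the labels says that replicates came from separate cultures. The p-values therefore rest on the spread among these 4 arrays, part or all of which may be technical. The GC-1 line goes back to type B spermatogonia immortalised by SV40 large T antigen. GC-2 goes back to spermatocytes that received large T antigen together with a temperature-sensitive p53, so that both lines carry the viral oncogene and GC-2 alone the second transgene. Each is a single established line, and both were grown in high-glucose medium with 10% serum at 37 °C and harvested at 90% confluency, with no treatment.

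Glycolysis splits glucose into pyruvate, which is either reduced to lactate by lactate dehydrogenase or carried into mitochondria, where the pyruvate dehydrogenase complex feeds it into the citric acid cycle. Pyruvate dehydrogenase kinases switch that complex off. Male germ cells are known for their own forms of several of these enzymes: Pgk2, Gapdhs, Ldhc and Pdha2 are made in meiotic cells or spermatids, beside the widely expressed Pgk1, Gapdh, Ldha, Ldhb and Pdha1. Pgk2 and Pdha2 are retrogenes on autosomes, whose parent genes lie on the X chromosome, and spermatocytes are known to take up lactate supplied by Sertoli cells.

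The probes that read the germ cell forms are shown because the absence of a signal rests on them, and the probe of Ldha because it is compared further on with a second probe of that gene. Each is 60 bases long, copied 5′ to 3′ from the scanner files, with no letters in capitals. On mm9 the probe of Pgk2 lies on chromosome 17, 40344365 to 40344424, and that of Gapdhs on chromosome 7, 31514906 to 31514965. That of Pdha2 lies on chromosome 3, 140873561 to 140873620. The probe of Ldhc lies on chromosome 7, 54131104 to 54131163, and that of Ldha on the same chromosome, 54103010 to 54103069.
Pgk2: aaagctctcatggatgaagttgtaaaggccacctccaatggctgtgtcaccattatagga
Gapdhs: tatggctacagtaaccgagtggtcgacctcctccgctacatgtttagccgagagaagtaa
Pdha2: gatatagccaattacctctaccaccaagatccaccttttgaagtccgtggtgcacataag
Ldhc: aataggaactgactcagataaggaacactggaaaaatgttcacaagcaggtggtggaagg
Ldha: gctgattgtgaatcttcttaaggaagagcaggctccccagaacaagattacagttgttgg

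The promoters of the 2 pairs of an X-linked gene and its retrogene copy are shown for the difference between their starts. They are RefSeq sequences of GRCm38.p6 from 250 bases before to 50 bases after the start, 5′ to 3′ on the gene's strand, with every CG in capitals: Pgk1 at chrX:106186850-106187149 on the plus strand, Pgk2 at chr17:40208560-40208859, Pdha1 at chrX:160138381-160138680 and Pdha2 at chr3:141212306-141212605, all 3 on the minus strand.
Pgk1: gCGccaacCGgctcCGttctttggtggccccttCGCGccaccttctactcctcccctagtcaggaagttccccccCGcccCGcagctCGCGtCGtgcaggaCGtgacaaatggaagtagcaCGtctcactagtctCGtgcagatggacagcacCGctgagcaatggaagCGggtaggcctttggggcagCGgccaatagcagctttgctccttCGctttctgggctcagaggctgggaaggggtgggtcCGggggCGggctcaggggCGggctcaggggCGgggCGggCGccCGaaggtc
Pgk2: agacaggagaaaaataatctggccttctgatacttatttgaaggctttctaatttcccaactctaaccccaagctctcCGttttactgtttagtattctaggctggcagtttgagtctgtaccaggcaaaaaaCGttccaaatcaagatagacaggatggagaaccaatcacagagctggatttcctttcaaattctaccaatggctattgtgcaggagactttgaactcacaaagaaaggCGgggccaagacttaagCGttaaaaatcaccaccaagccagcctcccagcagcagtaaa
Pdha1: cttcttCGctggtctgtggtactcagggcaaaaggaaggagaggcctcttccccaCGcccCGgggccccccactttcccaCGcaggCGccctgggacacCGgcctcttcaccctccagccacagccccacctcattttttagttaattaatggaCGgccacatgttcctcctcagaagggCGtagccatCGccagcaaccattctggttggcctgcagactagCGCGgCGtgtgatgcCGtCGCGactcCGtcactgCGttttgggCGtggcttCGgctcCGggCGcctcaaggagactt
Pdha2: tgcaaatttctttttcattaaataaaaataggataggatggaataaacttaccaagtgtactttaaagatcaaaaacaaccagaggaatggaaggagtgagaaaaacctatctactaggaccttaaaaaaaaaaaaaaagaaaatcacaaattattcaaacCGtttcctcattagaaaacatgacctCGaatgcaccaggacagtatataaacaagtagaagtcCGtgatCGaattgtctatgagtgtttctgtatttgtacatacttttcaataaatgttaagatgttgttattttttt

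The window of Pgk1 held 24 CG and that of Pdha1 21, while those of Pgk2 and Pdha2 held 4 each. The median over 32851 promoters of this length in the table was 7. For Ldhc the table listed 2 windows with 9 and 3 CG, and for Ldha 2 with 30 and 13. The letters ACGTG, the core that hypoxia-inducible factors are known to bind, were searched on both strands. They also form part of the E-box CACGTG, whose palindrome counts once per strand. Of 36 members with a promoter in the table, 18 held them in at least 1 window, and they stood in 44.6% of the members' 56 windows against 19.6% of all windows. The letters contain a CG, the members' windows had a median of 17.5 CG against 7, and 6 of the 25 windows with the letters belong to Ogdh and partly overlap. Of the germ cell forms, Gapdhs held them in 1 of its 2 windows and Pgk2, Ldhc and Pdha2 in none, as did the somatic Ldhb and Pdha1 in none. The table had no entry for Slc2a3 and Idh3a.

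Signals are given as processed Cy3 intensities, after the scanner software's background subtraction, and levels as log2 of that signal minus the 75th percentile of the array. The 75th percentile was 666 and 693 in GC-1 against 416 and 199.9 in GC-2, whose arrays were thus dimmer. Between 57.5% and 64.9% of probes exceeded background clearly. The lowest such signal was 7.72 to 10.5, which on the level scale is -6.38 and -6.04 in GC-1, against -5.58 and -4.69 in GC-2, a higher limit of detection in GC-2. The number of arrays limits the precision. All 4 arrays lay on 1 slide, each line in its own row, so slide position and line cannot be told apart. The labels call both lines germ cells. Spermatid genes were listed apart and are given further on. Of 8 other germ cell marker genes only Ddx4 was above background on both arrays of a line, GC-1, and none was in GC-2. Dazl, Mael, Kit and Tex101 were above it on no array. The summed level of these 8 genes, relative to the 75th percentile, was 0.0499 to 0.0974 in GC-1 and 0.0800 to 0.115 in GC-2. Each sum takes the brightest probe of a gene, whether above background or not. With the higher limit of detection in GC-2, these 2 ranges do not measure a difference between the lines. Summed levels of markers of other testicular cells differed between the lines, although single genes did not all follow the sum. The summed level of 6 Sertoli cell genes, of which Amh and Cldn11 were above background nowhere, was 143 and 111 in GC-1 and 5.46 and 5.82 in GC-2, with 4 measured in each line. That of 4 macrophage genes (3 in each line, Adgre1 nowhere) was 30.1 and 17.4 against 9.73 and 7.90. That of 4 myoid cell genes (4 and 3 measured) was 10.3 and 9.56 against 27.1 and 34.97, and that of 4 Leydig cell genes (3 and 2, Hsd3b1 nowhere) 0.237 and 0.261 against 1.70 and 2.72. Spermatid and muscle genes summed to at most 0.335 on any array. Of the 4 measured Sertoli cell genes, Wt1 and Dhh were lower in GC-2 and Gata4 and Sox9 higher. Wt1, the brightest of these genes in GC-1, had levels of 7.09 and 6.75 there and 0.48 and 0.78 in GC-2. Those of Gata4 were -0.55 and -0.15 against 1.90 and 1.80. Among the macrophage genes Cd68 was lower in GC-2, Csf1r higher, and Cd14 overlapped between the lines. Of the Leydig cell genes Star and Cyp17a1 were higher in GC-2, and Cyp11a1 was above background there on no array. The part of these differences in the results was not tested. The E1A spike-in probes read control RNA that this kind of array is made to take at labelling, although the labels do not say that it was added, and were 2.07 log2 higher in GC-2 on the level scale (SD 0.45 over 8 probes). If arrays were scaled to them, every change given here would be lower by that amount.

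Of the 38 genes, 35 had a probe that could be tested, 33 were measured above background on each GC-1 array and 34 on each GC-2 array. A gene is represented by its brightest tested probe, and changes are GC-2 minus GC-1. Of these 35, 7 rose and 4 fell in GC-2 (limma, adjusted p under 0.05 over all probes), while 43.4% of all 24129 gene names tested passed, 20.0% higher and 23.3% lower. The rises were Slc2a3, Pdk4, Hk3, Pfkl, Pdk3, Hk1 and Tpi1 and the falls Eno2, Ldhb, Hk2 and Fh1. If scaled to the spike-in probes, 2 members would be higher and 31 lower, and of the rises only Slc2a3 and Pdk4 would keep their direction. The median log2 change of the 35 was 0.28, against -0.04 over all gene names. Under median centring both were lower, at -0.04 and -0.35, and without GC-1 replicate 2 the members' median was -0.11. Pdk4, Slc2a3, Pfkl, Pdk3, Eno2 and Ldhb passed whichever array was left out. Hk1, Hk3 and Tpi1 lost their calls without GC-1 replicate 1, GC-1 replicate 2 or GC-2 replicate 2, leaving 4 rises. Hk2 and Fh1 lost theirs without any 1 array, and 2 falls were left without GC-1 replicate 1. Over the mean of a gene's probes, 11 members rose. The arrays of the 2 lines did not overlap for 30 of the 35, and for 76.2% of all gene names tested.

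**Figure D1:**
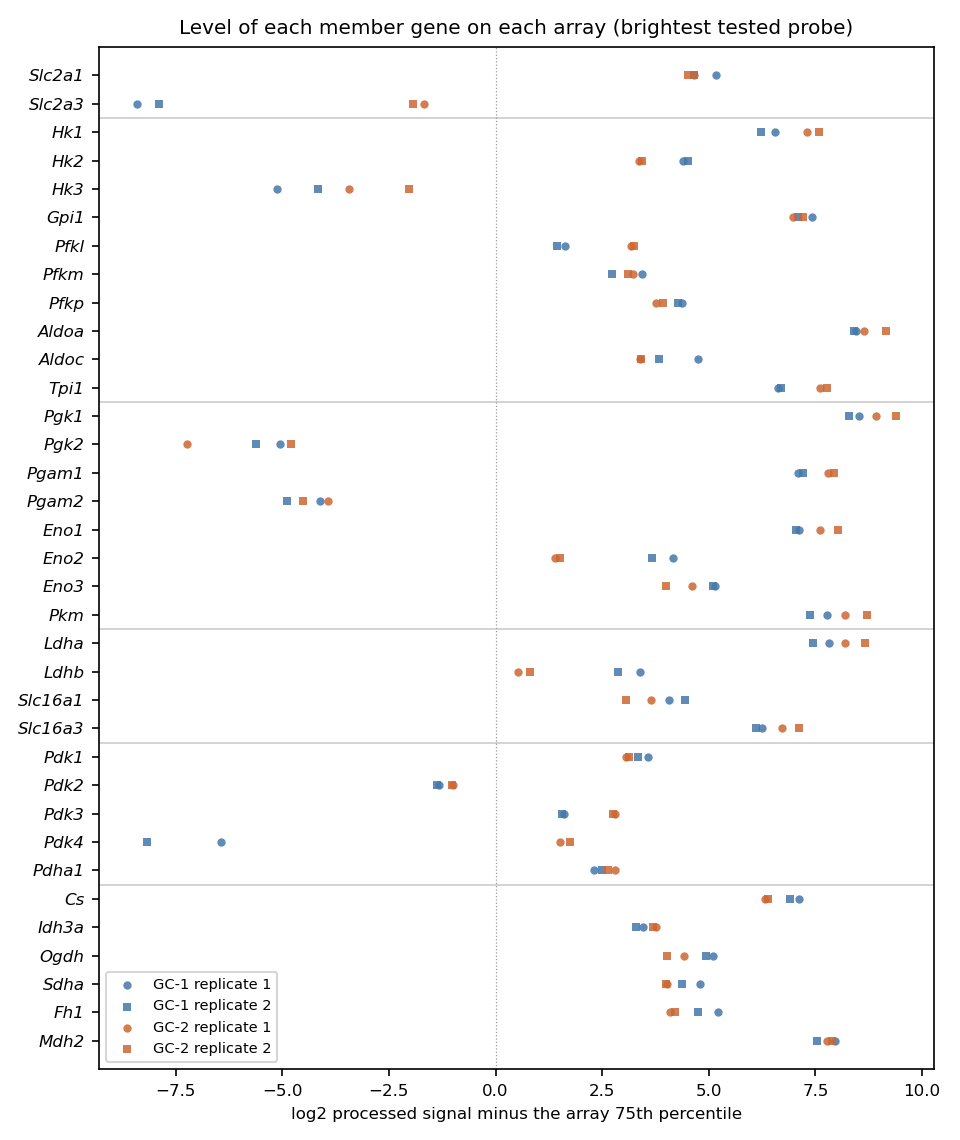
Level of each of 35 member genes on each array, as log2 processed signal minus the array's 75th percentile (x axis), by role from glucose import at the top to the citric acid cycle at the bottom; blue is GC-1, orange GC-2, circles replicate 1 and squares replicate 2. The widest gaps between the lines are those of Slc2a3 and Pdk4, whose GC-1 points were not above background and mark no measured level; levels of different genes are not comparable, since each is read by its own probe.

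The glucose transporter genes stood apart from one another. Slc2a1, which encodes the widely expressed transporter GLUT1, had levels of 5.17 and 4.66 in GC-1 and 4.64 and 4.51 in GC-2. Its change of -0.34 ± 0.28 log2 (SE, n = 2 arrays per line) did not pass the test (limma, adjusted p = 0.354). Slc2a3, which encodes the high-affinity transporter GLUT3, was above background on no GC-1 array, with signals of 1.96 and 2.92, and on both GC-2 arrays, with signals of 129 and 52.0. On the level scale, this put GC-2 at least 21.1-fold higher (limma, adjusted p = 0.000179). The bound sets the mean GC-2 level against the mean of the lowest levels well above background on each GC-1 array. A second Slc2a3 probe, on chromosome 6 at 122681586 to 122682419 (mm9), was above background on no array, while the probe that rose lies at 122678075 to 122678134.

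Among the first steps, isoforms of hexokinase moved in opposite directions. Hexokinase traps glucose in the cell by phosphorylation. Hk1, the housekeeping form, had levels of 6.56 and 6.22 in GC-1 and 7.30 and 7.57 in GC-2 and rose by 1.05 ± 0.26 log2 (limma, adjusted p = 0.0231). Hk2, the insulin-responsive form of muscle and of many tumours, had levels of 4.40 and 4.50 in GC-1 and 3.37 and 3.42 in GC-2 and fell by 1.06 ± 0.23 (limma, adjusted p = 0.0146). Both pairs were separate, in opposite directions. The lines were separate, in either direction, for 76.2% of all gene names tested. Hk3, a form of blood cells, was dim throughout, with signals of 19.1 and 38.9 in GC-1 and 38.4 and 48.6 in GC-2, and rose by 1.90 ± 0.56 (limma, adjusted p = 0.0393). Its signals before scaling overlapped between the lines, and its other probe was above background on 1 GC-1 array alone. The signals of Hk1, Pfkl, Tpi1 and Pdk3 before scaling overlapped too. Of the rises, only Slc2a3 and Pdk4 were apart without scaling between arrays. A second bright probe of Hk1 stood at -0.05 ± 0.24, so the rise of Hk1 belongs to 1 of its 2 bright probes. Its dim tested probes differed too. That 47054 genomic bases upstream rose by 1.38 ± 0.25 (limma, adjusted p = 0.00796), and that 28624 bases upstream stood at 0.03 ± 0.33.

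Phosphofructokinase makes the committed step of glycolysis. Pfkl, the liver form, had levels of 1.63 and 1.45 in GC-1 and 3.19 and 3.24 in GC-2, a rise of 1.68 ± 0.23 log2 or 3.20-fold (limma, adjusted p = 0.00359). A second probe of Pfkl, 19431 bases upstream in the genome, rose by 1.68 ± 0.24. The muscle form Pfkm stood at 0.07 ± 0.31 and the platelet form Pfkp, on its brightest probe, at -0.48 ± 0.23, neither past the test. Of 5 tested probes of Pfkp, a dim 1 rose by 2.06 ± 0.29 (limma, adjusted p = 0.00389) and the others did not pass. Tpi1, which interconverts the 2 triose phosphates, had levels of 6.63 and 6.70 in GC-1 and 7.61 and 7.77 in GC-2, a rise of 1.03 ± 0.23 (limma, adjusted p = 0.0166). All 4 of its probes rose, by 1.03 to 1.43. The isomerase gene Gpi1 stood at -0.16 ± 0.26 and the aldolase genes Aldoa and Aldoc at 0.47 ± 0.27 and -0.89 ± 0.36. On these brightest probes all were short of the threshold. At 2 of its 4 probes, both dimmer, Gpi1 rose by 1.32 ± 0.25 and 2.01 ± 0.23 (limma, adjusted p = 0.00932 and 0.00196).

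Of 8 tested genes of the later steps, each read by its brightest probe, only Eno2 passed, where 43.4% of all gene names tested did. Eno2, the neuron-type enolase, had levels of 4.15 and 3.68 in GC-1 and 1.40 and 1.51 in GC-2. It fell by 2.46 ± 0.27 log2, or 5.50-fold (limma, adjusted p = 0.00172), on the probe at chromosome 6, 124710388 to 124710447 (mm9). The other enolases went different ways without passing: Eno1, the ubiquitous form, stood at 0.75 ± 0.26 and Eno3, the muscle form, at -0.83 ± 0.29. Pgk1, whose enzyme makes the first ATP of the pathway, had levels of 8.51 and 8.29 in GC-1 and 8.92 and 9.39 in GC-2, a change of 0.75 ± 0.27 (limma, adjusted p = 0.0719). Pgam1 and Pkm, for phosphoglycerate mutase and pyruvate kinase, stood at 0.71 ± 0.23 and 0.87 ± 0.30 (adjusted p = 0.0542 and 0.0590). Pgam1, Eno1 and Pkm lay just short of the threshold, with both GC-2 arrays above both GC-1 arrays. Such a separation, in either direction, held for 76.2% of all gene names tested. The muscle form Pgam2 was dim, with overlapping arrays (0.28 ± 0.37). Other probes differed from these values. The dimmer probes of Eno1 rose by 2.51 ± 0.23 and 3.09 ± 0.24 (limma, adjusted p = 0.00107 and 0.000631). Of 4 tested probes of Pkm, 3 rose, by 1.04 to 3.08, while a second probe of Pgam1 stood at 0.65 ± 0.23.

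**Figure D2:**
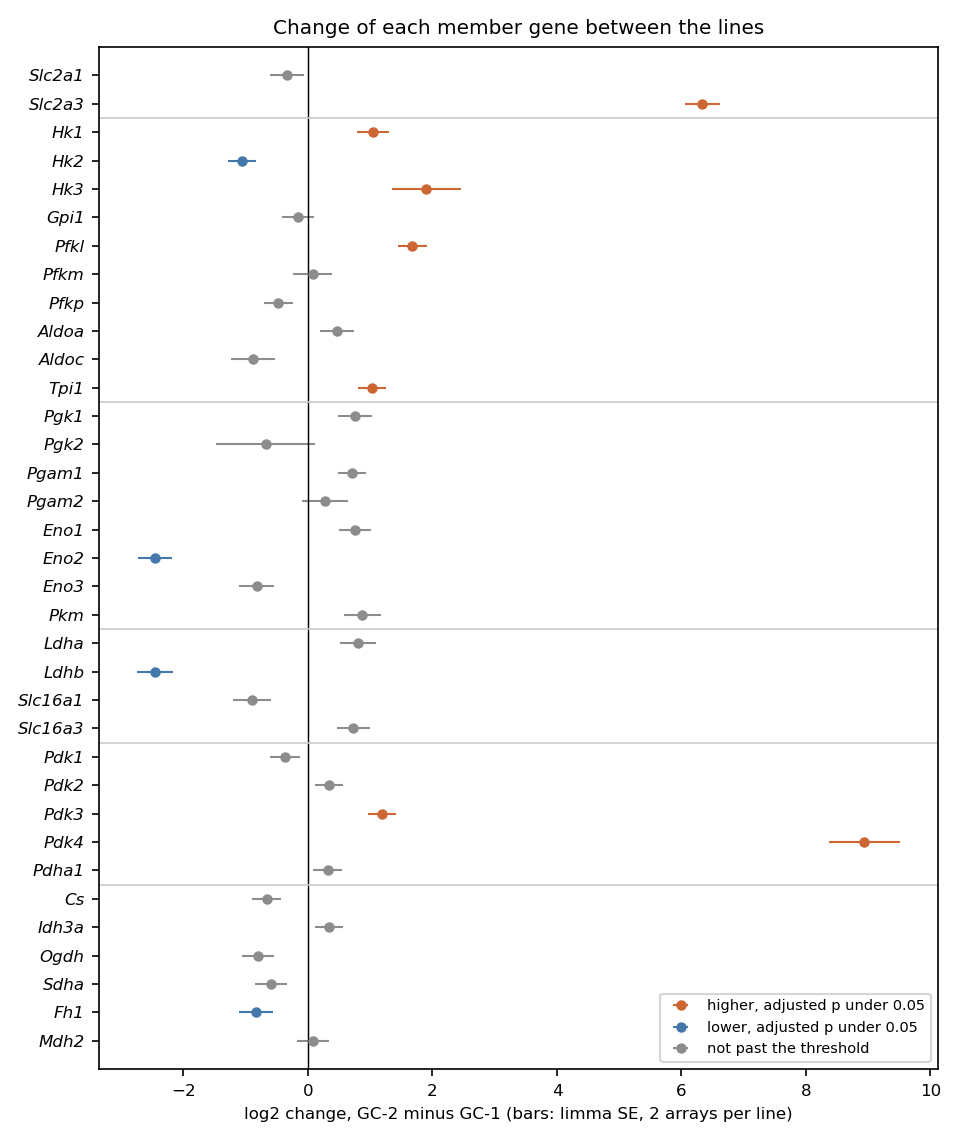
Log2 change of each of 35 member genes, GC-2 minus GC-1 (x axis), with the limma standard error as the bar and 2 arrays per line; orange marks the 7 genes that rose, blue the 4 that fell and grey the others. Eno2, at -2.46, fell the most. Slc2a3 and Pdk4 are drawn at their measured means but were above background on no GC-1 array. Their lower bounds of 21.1-fold and 229-fold apply to this scaling of the arrays, and other processing gave smaller changes.

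The lactate dehydrogenase subunits diverged. Ldha encodes the subunit of the form typical of muscle, and Ldhb that of the form typical of heart, which favours lactate oxidation. Ldhb had levels of 3.38 and 2.86 in GC-1 and 0.51 and 0.81 in GC-2. It fell by 2.45 ± 0.29 log2, or 5.48-fold (limma, adjusted p = 0.00215), and its second probe fell by 2.19 ± 0.30. Ldha had levels of 7.81 and 7.45 in GC-1 and 8.20 and 8.67 in GC-2, a change of 0.81 ± 0.28 that did not pass (limma, adjusted p = 0.0666). The probe of Ldha shown above, 7927 genomic bases upstream, rose by 2.49 ± 0.29 (limma, adjusted p = 0.00215). For Ldhb both lines were thus apart at both probes, while the size of the Ldha change differed between its probes. The lactate transporter genes Slc16a1 (MCT1) and Slc16a3 (MCT4, known for lactate export) stood at -0.90 ± 0.31 and 0.73 ± 0.26, in opposite directions and both short of the threshold (limma, adjusted p = 0.0606 and 0.0665).

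At the entry of pyruvate into the cycle, 2 of 5 tested genes rose, both for kinases, and none fell. Over all gene names tested 43.4% passed, 20.0% higher. Pdk4, known to rise in fasting and on fatty acids, was above background on no GC-1 array, with signals of 7.65 and 2.39, and bright on both GC-2 arrays, with signals of 1179.5 and 673. On the level scale, this put GC-2 at least 229-fold higher (limma, adjusted p = 0.000383), on 1 probe at chromosome 6, 5433441 to 5433500 (mm9). Pdk3 had levels of 1.61 and 1.57 in GC-1 and 2.81 and 2.75 in GC-2, a rise of 1.19 ± 0.23 log2 (limma, adjusted p = 0.00967), and its second probe rose by 1.43 ± 0.23. Pdk1, a known target of hypoxia signalling, stood at -0.37 ± 0.24 and Pdk2 at 0.34 ± 0.22, neither past the test. That value of Pdk1 is for its brightest probe, and 2 of its dimmer probes rose, by 1.96 ± 0.25 and 0.92 ± 0.24 (limma, adjusted p = 0.00267 and 0.0284). The gene of the complex that the kinases act on, Pdha1, had levels of 2.30 and 2.48 in GC-1 and 2.79 and 2.63 in GC-2, a change of 0.32 ± 0.24 (limma, adjusted p = 0.316).

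Of the 6 citric acid cycle members, each read by its brightest probe, 1 fell and none rose, where 43.4% of all gene names tested passed. Fh1, for fumarate hydratase, had levels of 5.21 and 4.76 in GC-1 and 4.10 and 4.21 in GC-2, a fall of 0.83 ± 0.27 log2 (limma, adjusted p = 0.0492) that lost its call without any 1 array. The citrate synthase gene Cs stood at -0.66 ± 0.23, Ogdh, of the oxoglutarate dehydrogenase complex, at -0.80 ± 0.26, and Sdha, of succinate dehydrogenase, at -0.59 ± 0.26. In each of these 3 both GC-2 arrays lay below both GC-1 arrays, and none passed (limma, adjusted p = 0.0515 to 0.116). The lines were separate, in either direction, for 76.2% of all gene names tested. Idh3a and Mdh2, for isocitrate and malate dehydrogenase, stood at 0.34 ± 0.23 and 0.08 ± 0.26. The median of the 6 was -0.63. Other probes differed from these values. The dimmer tested probes of Sdha stood at 0.32, 0.48 and 1.27, the last past the test (limma, adjusted p = 0.0193). A second tested probe stood at -0.14 ± 0.23 for Ogdh and at -0.50 ± 0.25 for Cs.

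The germ cell forms were at or near background in both lines, beside bright somatic forms. Ldhc, with 3 probes, was above background on no array, with signals of 1.55 to 9.66, and Pdha2 on none, with signals of at most 11.04 in GC-1 and 1.79 in GC-2. Gapdhs was above background on 1 GC-1 array, with a signal of 11.6. Pgk2 was well above background on both GC-1 arrays, with signals of 20.1 and 14.0, and on no GC-2 array, with signals of 2.74 and 7.22. Its change did not pass (limma, adjusted p = 0.517), and no fold is given, since the limit of detection of the GC-2 arrays lay above its mean level in GC-1. Without GC-2 replicate 2 the fit gave Pgk2 a fall of 1.91 (limma, adjusted p = 0.0216), which rests on a level not above background. The somatic Pgk1 read 242665 and 217014 in GC-1 and 201109 and 133819 in GC-2. Gapdh, the somatic form of Gapdhs and not among the 38, had levels of 8.06 and 7.97 in GC-1 and 8.50 and 8.92 in GC-2 on its brightest probe, 0.70 ± 0.26 (limma, adjusted p = 0.0756), while its 6 other probes all rose, by 0.99 to 2.32. Of 5 further germ cell isozymes of the pathway, Aldoart1 and Gykl1 were above background on no array. Ldhal6b rose by 0.88 ± 0.23 (limma, adjusted p = 0.0280), Eno4 fell by 1.12 ± 0.25 (adjusted p = 0.0165) and Aldoart2 stood at 0.25 ± 0.26. These 3 were dim, at levels of -5.68 to -3.54, and Eno4 and Aldoart2 were above background on 1 GC-2 array each. Their 2 calls became 0 without GC-1 replicate 1, GC-1 replicate 2 or GC-2 replicate 2, and 1 without GC-2 replicate 1.

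**Figure D3:**
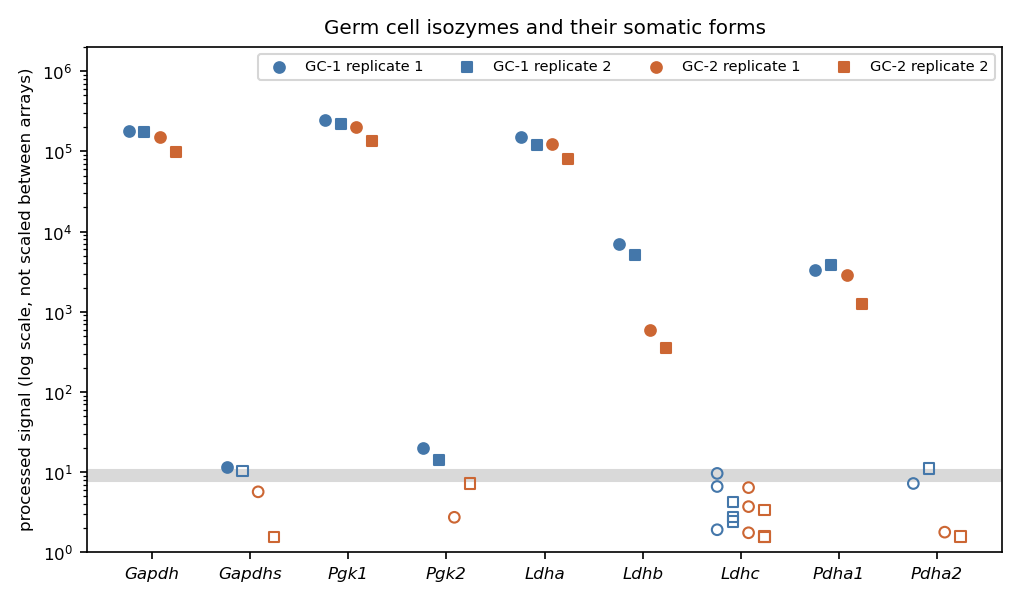
Processed signal (y axis, log scale, before scaling between arrays) of germ cell isozymes and their somatic forms on the 4 arrays, 1 point per array, with all 3 probes of Ldhc; filled points were well above background, open ones were not, and the grey band spans the lowest signals well above background on the 4 arrays, 7.72 to 10.5. Gapdh, Pgk1, Ldha, Ldhb and Pdha1 are filled on all arrays, while of the germ cell forms only Pgk2 on both GC-1 arrays and Gapdhs on 1 are filled.

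Probes of the same gene gave different sizes of change. In 17 members with several tested probes, the change at a probe further upstream in the genome exceeded that at the most 3′ probe in 32 of 35 cases, with a median difference of 0.84 log2. Over all 7935 gene names with such probes the share was 64.7%, and the median difference 0.46. Eno1 stood at 0.75 at its most 3′ probe and rose by 2.51 and 3.09 at the others, and Pkm stood at 0.87 there and rose by 1.04 to 3.08. Gpi1 and Pfkp had most 3′ probes at -0.17 and -0.48, while other probes rose by up to 2.01 and 2.06. Of the members' 70 tested probes 25 rose and 5 fell, where 45.7% of all tested probes passed, 24.1% higher and 21.6% lower, and no member had probes passing in both directions. Upstream probes were also mostly dimmer, by at least 4-fold in 27 of 35 cases. Among upstream probes at least that much dimmer, the change exceeded that at the most 3′ probe in 96.3% of cases for members. Over all gene names it did so in 74.6%. The median differences were then 1.07 and 0.88 log2, closer to each other than those over all upstream probes. RNA was amplified from its 3′ end with an oligo-dT primer in all samples, and the part of RNA integrity or amplification in these differences was not tested. Several of these genes have processed pseudogenes, and which copies a probe reads was not examined here. In the authors' deposited table, which has 1 value per gene name, Eno1, Pkm and Ldha stood 2.07, 1.58 and 1.60 log2 higher in GC-2. Up to 1 constant per array, the values of these 3 genes lay within 0.1 log2 of the mean of the same probes. They are therefore no separate measurement.

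**Figure D4:**
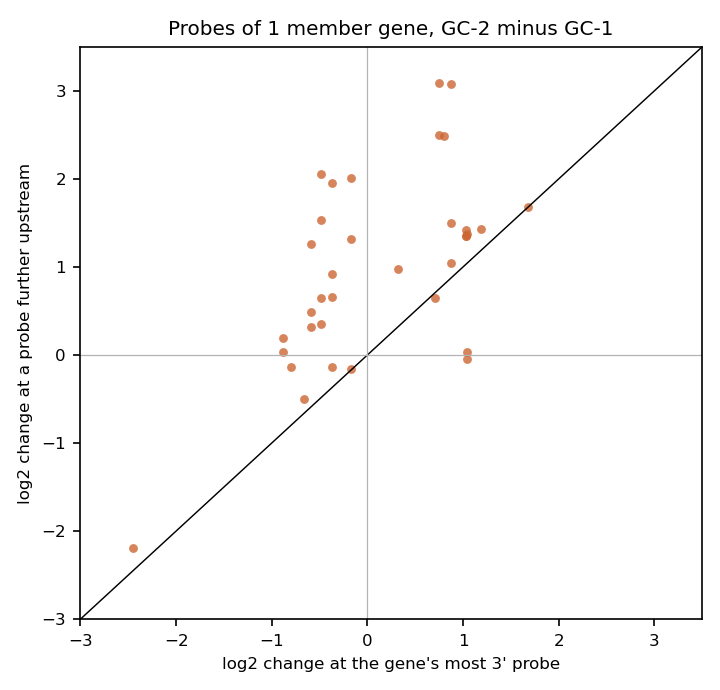
Log2 change (GC-2 minus GC-1) at a probe further upstream (y axis) against that at the gene's most 3′ probe (x axis), for 35 upstream probes of 17 member genes; the line marks equal change. Of the 35 points, 32 lie above the line.

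Further genes of the pathway were counted from lists, to be read beside the 43.4% of all gene names tested that passed. Of 18 tested other glycolytic and gluconeogenic genes 2 rose and 5 fell, with a median of -0.13. G6pc3, a ubiquitous glucose-6-phosphatase, rose by 4.64 ± 0.24 log2 (limma, adjusted p = 0.000232), and Bpgm, which makes bisphosphoglycerate, rose by 1.33 ± 0.28. The bifunctional kinase genes Pfkfb4, Pfkfb3 and Pfkfb2, whose enzymes set the level of the phosphofructokinase activator fructose-2,6-bisphosphate, fell by 1.92 ± 0.33, 1.41 ± 0.23 and 1.03 ± 0.27, and the hexokinase gene Hkdc1 fell by 1.09 ± 0.26 (limma, adjusted p = 0.00566 to 0.0290). Pfkfb3 and Pfkfb2 each had 1 further probe that did not pass. The 7 calls became 3 without GC-1 replicate 2 and 4 without GC-2 replicate 1. The gluconeogenic genes Pck1, Fbp1 and Fbp2 were above background on no array.

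Of 16 tested other sugar and monocarboxylate carriers, 8 rose and 1 fell, with a median of 0.72. Over all gene names tested, 20.0% rose and 23.3% fell. The fructose transporter gene Slc2a5 rose by 1.99 ± 0.44, Slc2a9, a urate carrier, by 1.76 ± 0.26, and Slc2a13, a myo-inositol carrier above background on 1 GC-1 array, by 1.64 ± 0.41 (limma, adjusted p = 0.00443 to 0.0240). Slc2a12 had probes past the threshold in both directions: its brightest rose by 1.64 ± 0.32, while another, above background on no GC-2 array, was at least 3.84-fold lower in GC-2 (limma, adjusted p = 0.0108 and 0.00152). Bsg, the chaperone of the lactate transporters, rose by 1.75 ± 0.26 (limma, adjusted p = 0.00448), and Slc2a10 fell by 2.16 ± 0.25 (adjusted p = 0.00210). The 9 calls became 5 without GC-1 replicate 1 or GC-1 replicate 2. Scaled to the spike-in probes, the median would be -1.35. Of 25 tested other pyruvate dehydrogenase and citric acid cycle genes, none rose and 4 fell, with a median of -0.23. These were Dlst and Dld, subunits of the oxoglutarate dehydrogenase complex, at -1.12 ± 0.23 and -0.95 ± 0.28, and the mitochondrial enzymes Idh2 and Me3, at -1.05 ± 0.27 and -1.29 ± 0.36 (limma, adjusted p = 0.0131 to 0.0370). A second probe of Idh2 stood at 0.48 ± 0.29. Under limma 7 of the 25 had an unadjusted p under 0.05. No call was left without GC-1 replicate 1 or GC-2 replicate 2, and 2 without either of the other arrays.

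Of 19 tested genes of the hypoxia-inducible factor pathway, which is known to drive many glycolytic genes, 3 rose and 6 fell, with a median of -0.48. The share passing was thus close to the 43.4% of all gene names tested. Epas1, for HIF-2 alpha, fell by 8.08 ± 0.29 log2 and Vegfa by 2.38 ± 0.33, while Car9, a carbonic anhydrase, rose by 7.07 ± 0.28, the peptide hormone gene Adm by 4.97 ± 0.30 and Bnip3 by 1.74 ± 0.27 (limma, adjusted p = 0.000141 to 0.00542). For Vegfa 2 of 4 probes fell and the others did not pass. Ndrg1 fell by 1.66 ± 0.29 (adjusted p = 0.00710). Known targets of the pathway thus stood on both sides.

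**Figure D5:**
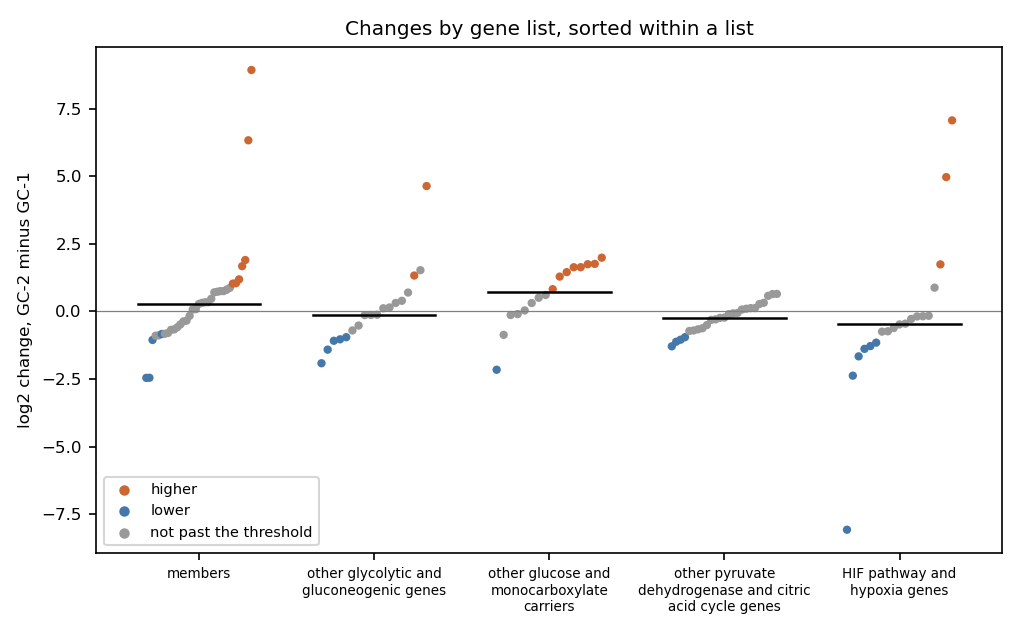
Log2 change (y axis, GC-2 minus GC-1) of the tested genes of each list, sorted within the list, with the median as a bar; orange marks genes that rose, blue those that fell and grey those not past the threshold. The medians are 0.28 for the 35 members, -0.13, 0.72 and -0.23 for the other glycolytic, carrier and citric acid cycle lists, and -0.48 for the hypoxia list, against -0.04 over all gene names.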

How the data were processed

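Total RNA was labelled with Cy3 and hybridised to 1-colour Agilent arrays. Per the file headers, the authors used Agilent Feature Extraction, version 11.5.1.1, to read the arrays. The deposited processed intensity per spot is background-subtracted and detrended within the array but not scaled between arrays, per the file headers, and probe positions are on mm9. The deposited files also hold other values, namely the software's yes-or-no flags per spot. The authors' deposited series table holds log2 values, 1 per gene name.

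Spots marked as irregular (1 to 28 per array) were left out, log2 processed intensities averaged per probe, and the 75th percentile subtracted. No spot was saturated. Probes well above background (at least 0.5 of their spots) on both arrays of a line were tested, 36693 in all, using lmFit and eBayes of limma 3.58.1 under R 4.3.3 (two-sided, Benjamini-Hochberg over all probes, threshold 0.05). The fit was tested on simulated data that held the changes called here. It recovered 62% of added 2-fold changes and 95% of 4-fold changes, and 2.47% of calls fell on unchanged probes. Where only 200 probes were changed, by 4-fold, no probe was called. Genes were matched by the name in the scanner files. Members and lists were chosen with earlier results of these data known. Named from each list were at most 6 genes past the threshold with the largest changes, and those above background on no array were added after their values were seen. Alternatives were other background corrections, scalings and filters, probe means, the authors' table, a replicate block and leaving out each array. Leaving out population outliers was added after seeing the data.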

Additional observations from a re-analysis of the deposited data

How the results depend on the processing

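Over 35 members and 14 alternatives, 487 changes were compared: 370 kept direction and side of the threshold, 30 kept only the direction and lost the call, 44 gained a call and 43 reversed. Eno2 and Ldhb kept their calls throughout, as did Slc2a3 and Pdk4 wherever they were tested. The change of Slc2a3 ran from 2.20 to 6.59 log2 over the alternatives, and that of Pdk4 from 4.91 to 9.80. The cause of the shifts given here was not tested.

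Spike-in scaling gave 1680 higher and 29906 lower probes (8847 and 7935 otherwise), 2 members higher and 31 lower, and medians of -1.79 for members, -2.10 for all gene names, -2.19 for other glycolytic genes (16 called), -1.81 for germ cell isozymes, -1.35 for carriers, -2.29 for citric acid cycle genes (25 called) and -2.55 for hypoxia genes (18 called). It reversed Hk1 to -1.02, Hk3 to -0.16, Pfkl to -0.39, Pfkm to -1.99, Aldoa to -1.60, Tpi1 to -1.04, Pgk1 to -1.32, Pgam1 to -1.36, Pgam2 to -1.79, Eno1 to -1.31, Pkm to -1.19, Ldha to -1.26, Slc16a3 to -1.34, Pdk2 to -1.73, Pdk3 to -0.88, Pdha1 to -1.75, Idh3a to -1.73 and Mdh2 to -1.98. Median centring gave 11 members lower, medians of -0.038 for members, -0.35 for all gene names, -0.44, -0.062, -0.54 and -0.80 for the glycolytic, germ cell, citric acid cycle and hypoxia lists, 1 call for germ cell isozymes and 7 for citric acid cycle genes, and Pfkm at -0.24, Pgam2 at -0.038 and Mdh2 at -0.23. Quantile normalization gave medians of -0.050 for members, -0.092 for all gene names, -0.042 for germ cell isozymes (1 called) and -0.0071 for citric acid cycle genes, with Aldoa at -0.26, Pgam2 at -0.050 and Mdh2 at -0.43. Normexp background gave 5039 lower probes, 9 members lower and medians of 0.38 for all gene names, 0.064, 0.97 and -0.31 for the glycolytic, germ cell and citric acid cycle lists, with Pfkm at -0.023, Pgk2 at 0.84 and Mdh2 at -0.0011.

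Without a filter 4 members rose, the median of all gene names was 0.33, and the glycolytic list had 4 calls (median 0.032), the germ cell list 1 (0.82) and the citric acid cycle list 1. With probes above background on all 4 arrays, 8 members fell, the median of all gene names was 0.035 and the germ cell list had 1 call (median 0.88). The mean over probes gave 11 members higher, medians of 0.47 for members, 0.075 for all gene names, 0.066 for glycolytic and -0.091 for citric acid cycle genes (11 called), and Gpi1 at 0.75, Pfkp at 0.82, Pdk1 at 0.61 and Sdha at 0.37. The authors' deposited table gave medians of 0.029 for all gene names and -0.15 for citric acid cycle genes, and Gpi1 at 0.70, Pfkp at 0.78, Pgk1 at -2.88, Slc16a3 at -2.34, Pdk1 at 0.56 and Sdha at 0.32.

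Leaving out 1 array gave 5764 to 7380 higher and 4938 to 6155 lower probes, 4 to 7 members higher and 2 to 4 lower, with medians of -0.11 to 0.37 for members, -0.098 to 0.026 for all gene names and -0.25 to -0.096 for citric acid cycle genes. Calls were 3 to 5 for glycolytic, 0 to 1 for germ cell, 5 to 8 for carrier and 0 to 2 for citric acid cycle genes. Changes ran from -0.33 to 0.0040 for Gpi1, -0.13 to 0.30 for Mdh2, -0.28 to 0.43 for Pfkm, -0.11 to 0.67 for Pgam2, where -0.022 was the value without GC-2 replicate 1, and -1.91 to 0.55 for Pgk2. A line with 1 array left is assumed to vary like the other.

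With the replicate number as a block, 9135 probes were higher and 8200 lower, 7 members rose and 3 fell, Fh1 losing its call (limma, adjusted p = 0.0563). Same-numbered samples share only a number: their deviations correlated at 0.12 over 36693 probes, with 2 pairs. Dim genes near background, the germ cell forms among them, are limited by the signal of the GC-2 arrays.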

Other observations

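The authors' deposited table gave values for a few members that stand far from their brightest probe. Pgk1 was listed there at 8.78 and 8.56 log2 in GC-1 and at 2.04 and 9.53 in GC-2, and the lactate transporter gene Slc16a3 at 6.51 and 6.38 in GC-1 and 0.97 and 7.25 in GC-2. In the authors' deposited table both genes were therefore lower in GC-2 on average, by a log2 difference of -2.88 for Pgk1 and -2.34 for Slc16a3. The brightest Pgk1 probe had levels, relative to the 75th percentile, of 8.92 and 9.39 in GC-2. A second probe under that name, placed on the opposite strand of the same region, had signals of 2.12 to 9.54 and was well above background on GC-2 replicate 1 alone. The value in the authors' deposited table was compared with the mean of the gene's probes that were well above background on that array, up to 1 constant per array. For members with several probes of which some were not above background, 23 of 23 values in the authors' deposited table lay within 0.1 log2 of that mean, 12 of the brightest probe and 0 of the mean of all probes. Over all 82 such values of 21 members, 74 lay within that tolerance of the mean of probes above background.

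Gapdh, read by 7 probes, gave a change of 0.70 ± 0.26 log2 at its brightest probe, the only 1 of the 7 that did not pass. It rose by 1.52 at the most 3′ probe, by 0.99 ± 0.31 at the probe 10 bases from it, and by 2.32 ± 0.23 and 2.19 ± 0.23 at those 1381 and 1464 genomic bases upstream (limma, adjusted p = 0.0452 for the probe at 10 bases and 0.00135 and 0.00154 for the last 2).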
